A study of Mus musculus with 9 samples.

Results

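A set of 10 genes of the antiviral interferon response was chosen by name: Ifit1, Ifit3, Isg15, Usp18, Bst2, Ifi27l2a, Ifitm3, Irf7, Rsad2 and Mx1. Their symbols were sought among the 32286 rows of the feature table, and 9 of the 10 were found and analysed. Mx1 was not analysed here. The libraries came from 9 primary mammary tumours grown from 168FARN cells, a mouse mammary carcinoma line, after injection into the mammary fat pad (MFP) of BALB/c mice, with 3 tumours each from wild-type (WT) cells, Kmt2c knockout (KO) cells and Kmt2d KO cells. Kmt2c and Kmt2d encode histone methyltransferases of enhancers. Each KO line was made with 3 guides against exon 1 of its gene and sorted as a pool, so the tumours of a group repeat the mouse and not the knockout. All tumour cells carried an H2B-mCherry reporter, read as the H2BMc row of the table, and the endothelial cells and macrophages of the same tumours came from the BALB/c host and carried no knockout. Transcript levels check no label here, since indels in exon 1 need not lower them: Kmt2c differed by −0.03 ± 0.10 (SE) on the log2 scale between Kmt2c KO and WT tumour cells (edgeR adjusted p = 0.874), and Kmt2d by 0.53 ± 0.15 between Kmt2d KO and WT (adjusted p = 0.105).

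Interferons released by a cell bind receptors on that cell and its neighbours and switch on a broad set of genes through a complex of STAT proteins and Irf9, which binds a DNA element called the interferon-stimulated response element (ISRE). The products act at different steps of infection. Ifit1 and Ifit3 bind viral RNA, Rsad2 (viperin) makes a nucleotide analogue that stops viral polymerases, Bst2 (tetherin) holds budding virus at the cell surface, and Ifitm3 hinders fusion of virus in endosomes. Isg15 is a ubiquitin-like protein that is joined to other proteins, Usp18 removes it and also damps the type I interferon receptor, and Irf7 is a transcription factor that amplifies interferon production. Ifi27l2a is a small membrane protein of an interferon-induced family. Ifit3 and Ifit3b are near-identical copies that can share reads, so the split of counts between them is uncertain, and Ifi27l2a has a related neighbouring copy, Ifi27l2b, that may share some.

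Promoter windows of 4 members are shown because these genes range from Ifit1, detected in few WT tumour cells, to Ifitm3, detected in most of them. The windows run from 250 bases before to 50 bases after the start of each gene and were taken from RefSeq on GRCm38.p6, the same assembly as mm10. They are written 5′ to 3′ on the strand of the gene, and capitals mark matches to the ISRE core GAAANNGAAA on either strand. The Ifit1 window is chr19:34640639-34640938 on the plus strand, the Isg15 window chr4:156200769-156201068 on the minus strand, the Bst2 window chr8:71537423-71537722 on the minus strand and the Ifitm3 window chr7:141010695-141010994 on the minus strand.
Ifit1: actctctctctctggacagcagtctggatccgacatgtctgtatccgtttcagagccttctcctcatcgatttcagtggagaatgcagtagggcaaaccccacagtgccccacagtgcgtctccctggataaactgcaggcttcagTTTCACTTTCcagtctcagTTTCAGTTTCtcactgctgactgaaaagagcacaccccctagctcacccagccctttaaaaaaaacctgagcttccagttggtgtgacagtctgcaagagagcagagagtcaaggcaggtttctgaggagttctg
Isg15: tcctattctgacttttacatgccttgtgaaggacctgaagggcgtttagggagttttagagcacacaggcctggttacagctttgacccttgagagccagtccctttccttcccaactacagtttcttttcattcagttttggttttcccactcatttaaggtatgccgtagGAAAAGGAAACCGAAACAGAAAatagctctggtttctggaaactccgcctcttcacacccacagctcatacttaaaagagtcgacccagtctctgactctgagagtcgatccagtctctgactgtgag
Bst2: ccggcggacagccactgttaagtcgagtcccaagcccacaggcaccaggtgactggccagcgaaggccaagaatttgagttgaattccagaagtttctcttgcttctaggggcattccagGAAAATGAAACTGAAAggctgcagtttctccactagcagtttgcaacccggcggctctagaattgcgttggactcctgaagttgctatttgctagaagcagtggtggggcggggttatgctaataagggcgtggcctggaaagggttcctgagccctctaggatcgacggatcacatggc
Ifitm3: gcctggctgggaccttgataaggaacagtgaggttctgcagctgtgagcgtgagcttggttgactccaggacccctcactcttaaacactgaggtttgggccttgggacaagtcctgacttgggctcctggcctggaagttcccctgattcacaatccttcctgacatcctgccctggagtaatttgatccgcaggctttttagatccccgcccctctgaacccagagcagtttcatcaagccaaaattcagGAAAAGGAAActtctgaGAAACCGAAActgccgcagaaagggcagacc

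Of the 9 members, 7 had a window in the table, while Usp18 and Ifi27l2a had none. The ISRE core matched in 6 of these 7 windows, compared with 3.44% of all 32851 windows of that length, and Irf7 was the member without a match. In Isg15 there were 3 overlapping matches, starting 78, 72 and 66 bases before the start, and in Bst2 there were 2 overlapping matches starting 130 and 124 bases before it. Ifit1 held 2 matches, both on the opposite strand, beginning 104 and 85 bases before the start, Ifit3 held 2 beginning 156 and 122 bases before it, and Rsad2 held 1 beginning 120 bases before it. Both matches of Ifitm3 lay after the start, at bases 2 and 19. A second element, the gamma-activated sequence TTCNNNGAA, matched in 2 of 7 windows (Bst2 and Ifitm3) and in 8.3% of all windows. In each of them this match overlapped 1 of the ISRE matches. These are letter matches and not measured binding sites.

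Whole-tumour suspensions were sequenced as 5′ single-cell libraries, and counts are unique molecular identifiers (UMIs). Each library held 21529691 to 125617312 UMIs over 3109 to 22929 barcodes, and 58645 of 89147 barcodes passed the study's limits. The mitochondrial limit alone removed 21.3, 11.6 and 33.8% of barcodes in WT libraries. It removed 7.94, 7.78 and 9.96% in Kmt2c KO and 13.3, 17.6 and 16.7% in Kmt2d KO, so loss differed between the groups. Tumour cells were those with at least 1 H2BMc UMI and fewer than 3 endothelial and 3 macrophage markers, 16556 cells in all and 355 to 3417 per library. The WT tumours gave 443, 921 and 355 such cells, the Kmt2c KO tumours 3417, 2570 and 2216, and the Kmt2d KO tumours 1844, 1998 and 2792. Krt8, an epithelial keratin, was detected in 74.1 to 95.5% of them. Endothelial cells (427, 32 to 68 per library) and macrophages (756, 31 to 191 per library) were gated on at least 3 of 10 markers each with no H2BMc or Krt8 UMI. Their defining markers were present in every library, with Pecam1 at 982 to 1363 CPM (UMIs of the gene scaled to a common library total of 1e6) in endothelial cells and C1qa at 2025 to 4154 CPM in macrophages, against at most 0.832 and 2.30 CPM in tumour cells. Libraries shared at most 2.28% of their barcode sequences with another. Nothing in the sources ties libraries to replicate numbers, so libraries are numbered 1 to 3 within a group by name only. Kmt2d KO library 2 stood apart from the other 2 Kmt2d KO libraries for most members in all 3 cell types, and Kmt2d KO results that rest on it are given with and without it.

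In tumour cells all 9 antiviral genes were higher in Kmt2c KO than in WT, by 1.69 to 4.59 on the log2 scale, and every Kmt2c KO tumour lay above every WT tumour for each of them, as for 20.9% of all tested genes. In Kmt2d KO the increase was smaller and passed the test for 3 genes, Ifitm3, Bst2 and Ifi27l2a. Levels are UMIs summed over the tumour cells of a library and expressed as CPM, and they were compared with edgeR's quasi-likelihood test over 14025 genes. A summed level mixes the number of cells that hold a transcript with the amount in each, and these are separated further below. The 2 contrasts with WT share the WT tumours, so their values are given side by side. All groups also share a common estimate of the spread, so Kmt2d KO library 2 enters the SEs of Kmt2c KO against WT. Without that library Isg15, for example, stood at 3.04 ± 0.15 in Kmt2c KO (edgeR adjusted p = 4.98e-08). With it the value was 3.04 ± 0.47 (edgeR adjusted p = 0.00248).

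Ifit1, which binds viral RNA, stood at 31.8, 14.5 and 33.5 CPM in WT tumours, at 95.5, 136 and 154 CPM in Kmt2c KO tumours and at 27.8, 109 and 30.7 CPM in Kmt2d KO tumours. Its partner Ifit3 stood at 31.3, 18.0 and 28.6 CPM in WT, 86.3, 142 and 131 CPM in Kmt2c KO and 25.7, 86.4 and 27.2 CPM in Kmt2d KO. For both genes Kmt2d KO libraries 1 and 3 fell within the WT range, and library 2 lay above the lowest Kmt2c KO library. Rsad2 was counted at 25, 1 and 14 UMIs in the 3 WT libraries and at 768, 949 and 1027 UMIs in the Kmt2c KO libraries, or 22.7, 31.5 and 34.7 CPM. In the Kmt2d KO libraries Rsad2 stood at 1.35, 15.9 and 1.86 CPM. So the transcript was close to absent from the tumour cells of WT tumours and of 2 of 3 Kmt2d KO tumours. The log2 differences between Kmt2c KO and WT were 2.28 ± 0.51 for Ifit1 (edgeR adjusted p = 0.0124), 2.22 ± 0.44 for Ifit3 (adjusted p = 0.00799) and 4.59 ± 1.01 for Rsad2 (adjusted p = 0.0118). Those between Kmt2d KO and WT were 1.05 ± 0.50, 0.81 ± 0.43 and 2.33 ± 1.08, with edgeR adjusted p of 0.312, 0.372 and 0.303. Without WT library 2, the lowest for all 3 genes, Ifit1 and Rsad2 no longer passed in Kmt2c KO (edgeR adjusted p = 0.0577 and 0.0574).

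Isg15, the ubiquitin-like modifier, stood at 102, 69.8 and 101 CPM in WT, at 610.2, 783 and 853 CPM in Kmt2c KO and at 145, 536 and 138 CPM in Kmt2d KO. Usp18, the protease that removes it, stood at 11.4, 5.51 and 8.87 CPM in WT, 61.5, 75.6 and 70.4 CPM in Kmt2c KO and 14.98, 47.8 and 15.2 CPM in Kmt2d KO. Irf7, the amplifying transcription factor, stood at 32.2, 22.1 and 38.8 CPM in WT, 241, 339 and 397 CPM in Kmt2c KO and 58.5, 177 and 57.5 CPM in Kmt2d KO. For these 3 genes all Kmt2d KO tumours lay above all WT tumours and below all Kmt2c KO tumours. Against WT the Kmt2c KO tumours were higher by 3.04 ± 0.47 for Isg15 (edgeR adjusted p = 0.00248), 3.03 ± 0.45 for Usp18 (adjusted p = 0.00209) and 3.39 ± 0.44 for Irf7 (adjusted p = 0.00103). The Kmt2d KO tumours differed from WT by 1.55 ± 0.45, 1.59 ± 0.44 and 1.63 ± 0.41, which did not pass over all genes (edgeR adjusted p = 0.108, 0.101 and 0.0738).

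Bst2, which tethers virus particles, stood at 202, 159 and 208 CPM in WT, 1149, 1401 and 1253 CPM in Kmt2c KO and 351, 789 and 348 CPM in Kmt2d KO. Ifi27l2a stood at 414, 380.0 and 489.5 CPM in WT, 1725, 1910.5 and 2057 CPM in Kmt2c KO and 716, 1195 and 835 CPM in Kmt2d KO. Ifitm3 stood at 1246.5, 1273 and 1289.7 CPM in WT, 3758, 4338 and 4192 CPM in Kmt2c KO and 1957, 2704 and 1779.5 CPM in Kmt2d KO. The 3 groups did not overlap for any of these genes, with WT lowest and Kmt2c KO highest. With Isg15, Usp18 and Irf7 that order without overlap held for 6 of 9 members and for 1.92% of all tested genes. The rises in Kmt2c KO were 2.74 ± 0.29 for Bst2 (edgeR adjusted p = 0.000447), 2.14 ± 0.17 for Ifi27l2a (adjusted p = 0.000134) and 1.69 ± 0.14 for Ifitm3 (adjusted p = 0.000161). Those in Kmt2d KO were 1.36 ± 0.28 (edgeR adjusted p = 0.0317), 1.06 ± 0.17 (adjusted p = 0.0102) and 0.73 ± 0.14 (adjusted p = 0.0245).

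**Figure D1:**
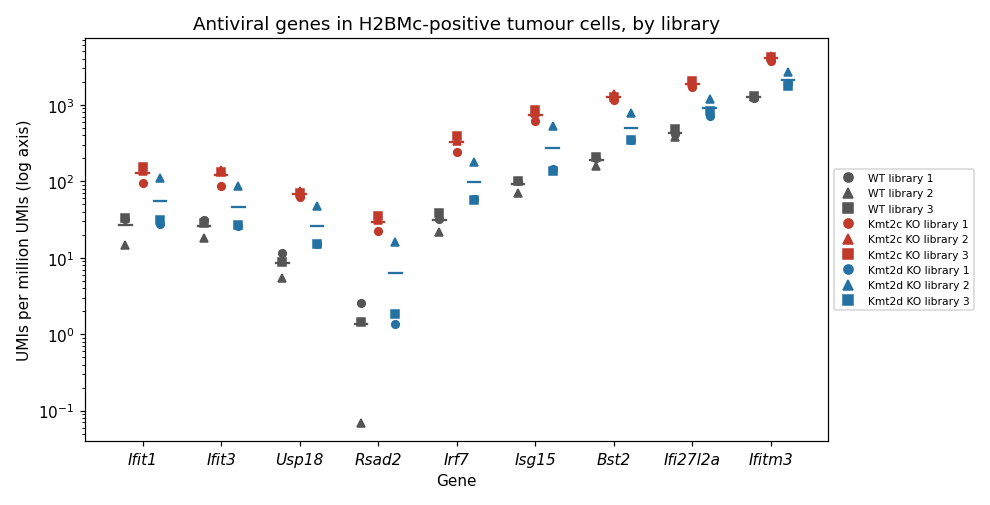
Level of each of the 9 antiviral genes in tumour cells, in CPM on a log axis, with 1 point per tumour for WT, Kmt2c KO and Kmt2d KO and a bar at each group's mean. All Kmt2c KO points lie above the WT points for each gene, and Kmt2d KO library 2 is the highest of its group for each gene. Kmt2d KO libraries 1 and 3 lie within the WT range for Ifit1, Ifit3 and Rsad2.

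In counts, 9 of 9 genes rose in Kmt2c KO, where 9.6% of all tested genes were called higher, and 3 of 9 rose in Kmt2d KO, where 1.06% were. Between Kmt2d KO and Kmt2c KO, edgeR called 0 of 9 genes (adjusted p = 0.0502 to 0.213) and 0.0% of all genes, although 9 of 9 were lower at an unadjusted p under 0.05, and DESeq2 called 4 of the 8 genes for which it gave an adjusted p (2.58% of all genes lower). Without Kmt2d KO library 2, 9 of 9 genes were lower in Kmt2d KO than in Kmt2c KO, by 1.15 to 4.17 in absolute log2 terms, and 10.5% of all genes were called lower. Left out in the same way, that library raised the count against WT to 6 of 9 (2.84% of all genes higher), with Isg15 at 0.62 ± 0.16, Usp18 at 0.83 ± 0.20 and Irf7 at 0.89 ± 0.21. Bst2, Ifi27l2a and Ifitm3 then stood at 0.86 ± 0.13, 0.83 ± 0.12 and 0.53 ± 0.10 and still passed (edgeR adjusted p = 0.00169, 0.00144 and 0.00785), while Ifit1, Ifit3 and Rsad2 did not pass (0.14 ± 0.27, 0.03 ± 0.23 and 0.44 ± 0.57, edgeR adjusted p = 0.816, 0.967 and 0.721). The smaller count in Kmt2d KO moved with single libraries elsewhere too, to 0 of 9 without WT library 1 or 2, to 1 without WT library 3, to 2 without any one of the Kmt2c KO libraries and to 4 without Kmt2d KO library 1 or 3. Over the 9 fits that each left out 1 library, 0.35 to 2.84% of all genes were called higher. Without Kmt2c KO library 1, 2 of 9 genes were lower in Kmt2d KO than in Kmt2c KO (0.438% of all genes), and without WT library 2 the 9 of 9 in Kmt2c KO became 7 (4.87% of all genes higher).

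Macrophage genes read in the tumour gate moved with these levels. The 10 macrophage markers summed to 5.79 to 7.80 CPM in WT tumour cells, 9.77 to 12.4 CPM in Kmt2c KO and 5.71, 11.5 and 5.81 CPM in Kmt2d KO, with 0 to 2 of the 10 at 0 in a library. The 10 endothelial markers summed to 39.0 to 53.6, 51.2 to 56.5 and 43.3 to 83.8 CPM, and those of T and NK cells to at most 1.56 CPM. Krt8 was lower in Kmt2c KO than in WT by 0.94 ± 0.17 (SE) in log2 (edgeR adjusted p = 0.00606). H2BMc stood higher by 0.73 ± 0.15 (edgeR adjusted p = 0.0103), but the gate itself asks for at least 1 H2BMc UMI per cell. Its level in the gate therefore depends on depth, which was lower in Kmt2c KO than in WT. No difference in H2BMc is read from it. In tumour cells with no endothelial, macrophage or T and NK marker UMI at all, 9 of 9 genes were again called higher in Kmt2c KO, where 9.11% of all genes tested in those cells were.

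Whether more cells held a transcript or each positive cell held more was asked at a matched depth. Depth differed between groups, with medians of 13729 to 24081 UMIs per cell in WT, 8659 to 11767 in Kmt2c KO and 11228 to 14739 in Kmt2d KO. Each cell was therefore thinned to 5000 UMIs and cells below that were left out (13, 33 and 13 in WT, 662, 333 and 180 in Kmt2c KO, and 153, 221 and 465 in Kmt2d KO). A positive cell is one with at least 1 UMI of the gene after thinning. In Kmt2c KO the share of positive cells rose for all 9 genes, whereas the level per positive cell rose for 5 of the 8 genes that could be tested. How a change divides between share and level depends on the depth chosen, since a share near 100% has little room to rise, so the division is not compared between genes. The genes are taken below in groups, from those detected in few WT cells to those detected in most.

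Ifit1 was detected in 5.12, 4.50 and 7.31% of WT cells, 23.9, 30.0 and 34.5% of Kmt2c KO cells and 6.21, 26.7 and 8.08% of Kmt2d KO cells. A positive cell held 3.36, 1.75 and 2.64 UMIs of Ifit1 in WT, 2.14, 2.56 and 2.42 in Kmt2c KO and 2.73, 2.54 and 2.32 in Kmt2d KO. The shares of Kmt2c KO and WT did not overlap and the levels per positive cell overlapped, with the highest and the lowest value both in WT. The log2 odds of a positive cell differed by 2.80 ± 0.46 (limma adjusted p = 0.00174) and the level per positive cell by −0.08 ± 0.18 (adjusted p = 0.863). The 95% interval of a share covers counting error only, and for Ifit1 in WT library 1 it ran from 3.23 to 7.64%.

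Ifit3 was detected in 9.77, 6.31 and 9.36% of WT cells, 22.6, 30.9 and 33.7% of Kmt2c KO cells and 7.87, 25.5 and 8.94% of Kmt2d KO cells, with 1.68 to 2.24 UMIs per positive cell in WT and 2.07 to 2.63 in Kmt2c KO. Usp18 was detected in 4.65, 2.14 and 3.22% of WT cells, 21.1, 24.0 and 23.4% of Kmt2c KO cells and 5.56, 18.7 and 6.88% of Kmt2d KO cells, with 1.11 to 1.82 and 1.53 to 1.72 UMIs per positive cell. Their levels per positive cell overlapped between the groups and differed by 0.18 ± 0.12 and 0.17 ± 0.13 (limma adjusted p = 0.446 and 0.529), and those of Usp18 stood near the level of 1 UMI, from which no change can be read. Rsad2 was detected in 4, 1 and 1 of the WT cells (0.930, 0.113 and 0.292%), in 5.01, 7.64 and 8.10% of Kmt2c KO cells and in 0.532, 4.78 and 0.559% of Kmt2d KO cells. With so few WT cells its level per positive cell was not tested, and in Kmt2c KO it stood at 2.21, 2.48 and 2.43 UMIs.

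Irf7 and Isg15 were seen in more WT cells. Irf7 was detected in 11.2, 10.1 and 13.5% of WT cells, 56.3, 58.3 and 68.2% of Kmt2c KO cells and 18.8, 45.9 and 19.7% of Kmt2d KO cells, and its level per positive cell went from 1.96, 1.5 and 2.11 UMIs in WT to 2.35, 3.33 and 3.41 in Kmt2c KO. Isg15 was detected in 22.8, 18.6 and 23.7% of WT cells, 67.0, 66.7 and 75.4% of Kmt2c KO cells and 27.1, 62.7 and 29.7% of Kmt2d KO cells. A cell positive for Isg15 held 2.51, 2.12 and 2.89 UMIs in WT, 4.73, 6.69 and 6.21 in Kmt2c KO and 3.18, 5.20 and 2.86 in Kmt2d KO. For both genes Kmt2c KO stood above WT in every library on both measures. The log2 odds rose by 3.58 ± 0.37 for Irf7 (limma adjusted p = 9.55e-05) and 3.07 ± 0.41 for Isg15 (adjusted p = 0.000520), and the levels per positive cell by 0.70 ± 0.15 (adjusted p = 0.0315) and 1.22 ± 0.21 (adjusted p = 0.00934). Without Kmt2c KO library 2 neither rise in level per positive cell passed (limma adjusted p = 0.160 and 0.0620), and that of Irf7 was also lost without WT library 1 or 2 or Kmt2c KO library 3 (adjusted p = 0.0654, 0.0850 and 0.131).

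Bst2, Ifi27l2a and Ifitm3 were the most often detected. Bst2 was detected in 56.3, 49.0 and 52.0% of WT cells, 94.4, 93.2 and 94.4% of Kmt2c KO cells and 66.0, 85.6 and 68.2% of Kmt2d KO cells. A positive cell held 1.91, 1.86 and 2.44 UMIs of Bst2 in WT, 6.52, 8.38 and 7.22 in Kmt2c KO and 3.12, 5.19 and 2.98 in Kmt2d KO. Nearly all Kmt2c KO cells were positive, and the amount in each was also well above that of WT. Ifi27l2a was detected in 64.4, 67.7 and 65.8% of WT cells, 93.1, 88.1 and 91.4% of Kmt2c KO cells and 76.6, 86.8 and 80.5% of Kmt2d KO cells, at 3.38, 2.90 and 4.24 UMIs per positive cell in WT, 9.74, 12.1 and 12.5 in Kmt2c KO and 4.77, 7.86 and 5.41 in Kmt2d KO. Ifitm3 was detected in 93.3, 93.1 and 96.8% of WT cells and in 99.7, 98.97 and 99.3% of Kmt2c KO cells, at 7.96, 7.99 and 7.86 UMIs per positive cell in WT and 20.4, 23.9 and 22.2 in Kmt2c KO. In Kmt2d KO the share of Ifitm3 averaged 97.6%, and its level per positive cell averaged 12.3 UMIs with an SD of 2.55 between libraries. For Ifitm3, whose share was near its ceiling in WT at this depth, the levels per positive cell did not overlap between WT and Kmt2c KO. They rose by 1.48 ± 0.13 in Kmt2c KO (limma adjusted p = 0.000454). Those of Bst2 and Ifi27l2a rose by 1.83 ± 0.19 (limma adjusted p = 0.000883) and 1.71 ± 0.19 (adjusted p = 0.00121). Thinned to 1000 UMIs, where fewer cells of each group are positive, the shares of these genes also stood apart, with no test run at that depth. Bst2 was then detected in 14.98 to 19.2% of WT and 62.3 to 65.3% of Kmt2c KO cells, Ifi27l2a in 24.8 to 31.6% and 66.4 to 71.0%, and Ifitm3 in 63.4 to 66.9% and 90.3 to 90.95%.

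**Figure D2:**
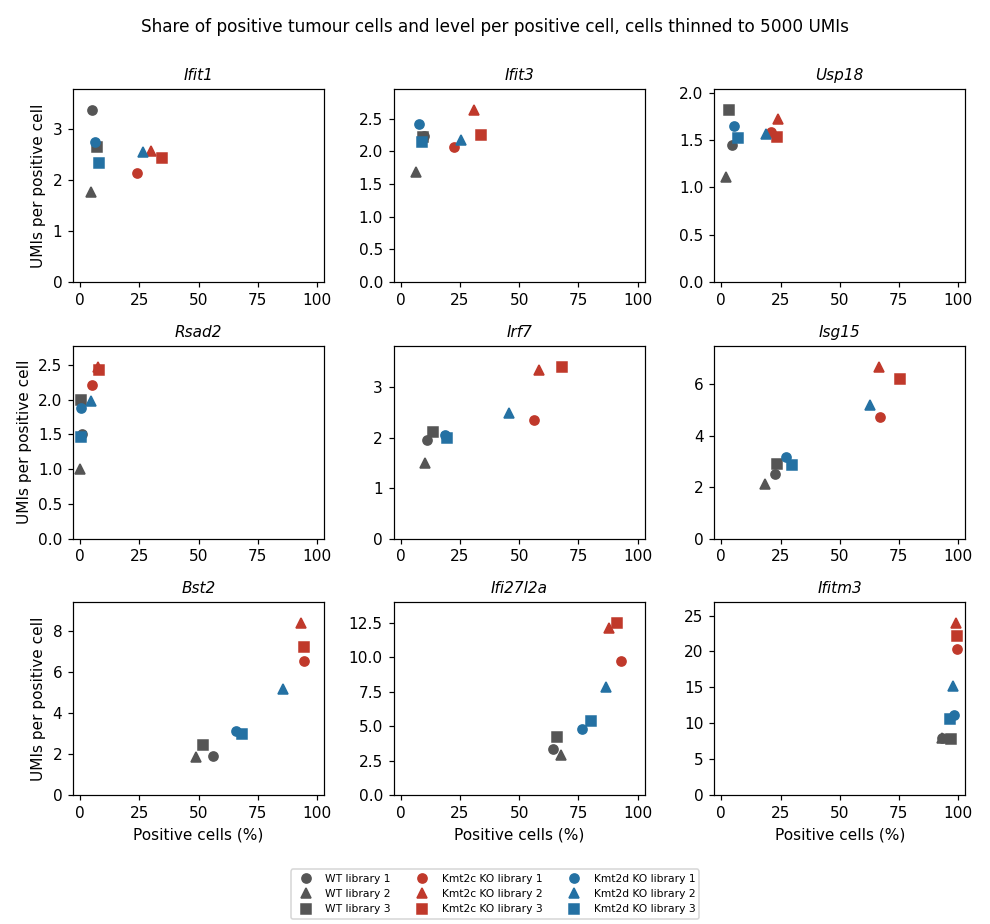
For each of the 9 genes, the share of tumour cells with at least 1 UMI at 5000 UMIs per cell (horizontal axis, percent) against the mean UMIs per positive cell (vertical axis), with 1 point per tumour in WT, Kmt2c KO and Kmt2d KO. In Ifit1 the Kmt2c KO points lie to the right of WT at a like height (2.14 to 2.56 against 1.75 to 3.36 UMIs), and in Ifitm3 they lie above WT with little shift to the right, where 93.1 to 96.8% of WT cells were already positive.

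Spread between cells can be described by how far the observed share lay below the share that cells with 1 common mean would give by Poisson counting. For Isg15 in Kmt2c KO such cells would give 95.8, 98.8 and 99.1% positive cells, against the 67.0, 66.7 and 75.4% observed, and for Ifit1 40.0, 53.6 and 56.6% against 23.9, 30.0 and 34.5%. Tumour cells of one library thus differed in these transcripts by more than counting error in WT as well, where Ifit1 would give 15.8, 7.58 and 17.6% positive cells and gave 5.12, 4.50 and 7.31%.

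By test, 9 of 9 shares rose in Kmt2c KO against 5.17% of all 11101 genes tested, and 5 of 8 levels per positive cell rose against 1.86% of 9512 genes. In Kmt2d KO the share of Ifi27l2a passed (1.20 ± 0.27, limma adjusted p = 0.0494), which is 1 of 9 where 0.676% of all genes were called, and 0 of 8 levels per positive cell passed where 0.0526% were (4 of 8 at an unadjusted p under 0.05). Between the knockouts, the share of Bst2 was lower in Kmt2d KO by 2.42 ± 0.33 in log2 odds (limma adjusted p = 0.0413), 1 of 9 where 0.00901% of all genes were called, and 0 of 8 levels per positive cell were called where 0.0% of genes were (5 of 8 at an unadjusted p under 0.05). Both single calls were fragile. Ifi27l2a in Kmt2d KO no longer passed without any 1 WT library, Kmt2c KO library 3 or Kmt2d KO library 3, and Bst2 between the knockouts did not pass without any 1 library other than Kmt2d KO library 2. Without Kmt2d KO library 2 the shares of 4 genes were higher in Kmt2d KO than in WT (1.49% of all genes), namely Usp18, Irf7, Bst2 and Ifi27l2a, those of 9 of 9 were lower than in Kmt2c KO (4.27%), and 4 of 8 levels per positive cell were lower than in Kmt2c KO (0.946%), namely Isg15, Ifitm3, Bst2 and Ifi27l2a. Without Kmt2d KO library 1 the count of shares higher than in WT was also 4, and the 9 fits called 0.216 to 1.49% of all genes.

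Shares in cells that were not thinned were larger, at 9.03, 7.60 and 11.3% of WT and 34.1, 40.9 and 49.8% of Kmt2c KO cells for Ifit1, and 47.2, 35.8 and 50.4% and 77.9, 78.8 and 87.5% for Isg15. Kmt2c KO stood above WT here too, although WT cells were deeper than Kmt2c KO cells. Ifitm3 was the exception, with 97.8 to 98.9% of WT and 97.98 to 98.9% of Kmt2c KO cells positive without thinning. C1qa, a macrophage gene, was detected in 0.813 to 3.61% of unthinned tumour cells and in 51.6 to 87.9% of macrophages. It can gauge only free RNA from macrophages. The tumour gate also limits macrophage markers, C1qa among them, so its share in tumour cells is capped by the gate. Free RNA of the antiviral genes was not gauged in tumour cells. Rsad2, at 0.109 to 1.97% of unthinned WT tumour cells, did not exceed the range of C1qa in WT. A member above that range is not thereby shown to exceed free RNA.

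Most Kmt2c KO tumour cells held at least 1 of the rarer antiviral transcripts. The 6 genes least often detected in WT cells at 5000 UMIs (Ifit1, Ifit3, Isg15, Usp18, Irf7 and Rsad2) were grouped after their values were seen, as a description with no test. None of these 6 genes was detected in 66.7, 71.5 and 67.5% of WT cells, 18.2, 19.4 and 11.6% of Kmt2c KO cells and 61.1, 27.3 and 57.2% of Kmt2d KO cells. At least 3 of them were detected in 4.65, 2.93 and 7.89% of WT cells, 32.3, 38.2 and 44.5% of Kmt2c KO cells and 6.51, 32.0 and 7.86% of Kmt2d KO cells. The Kmt2c KO tumours and Kmt2d KO library 2 did not overlap with the rest on either count. The 10% of cells with the most UMIs of these genes held 77.4, 74.1 and 78.8% of them in WT, 45.7, 45.5 and 40.6% in Kmt2c KO and 75.2, 49.7 and 71.0% in Kmt2d KO, so the transcripts sat in fewer cells in WT. Isg15 was detected more often in cells with Ifit1 than in cells without it in all 9 libraries. Among cells with Ifit1, Isg15 was detected in 86.4, 70.0 and 88.0% in WT (22, 40 and 25 cells), 89.98, 93.4 and 92.9% in Kmt2c KO and 79.0, 92.8 and 76.1% in Kmt2d KO. Among cells without Ifit1 it was detected in 19.4, 16.2 and 18.6%, 59.8, 55.3 and 66.3%, and 23.7, 51.7 and 25.7%. In cells without Ifit1 every Kmt2c KO tumour lay above every WT tumour. Read the other way, Ifit1 was detected in 19.4, 16.97 and 27.2% of the WT cells with Isg15, so most of those cells had no Ifit1 UMI at this depth.

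**Figure D3:**
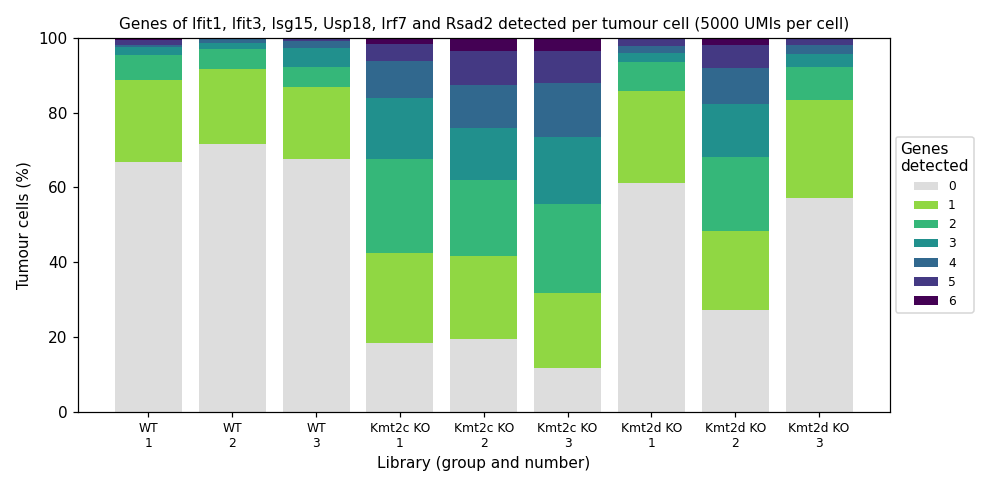
Share of tumour cells (percent, at 5000 UMIs per cell) in which 0 to 6 of Ifit1, Ifit3, Isg15, Usp18, Irf7 and Rsad2 were detected, as 1 stacked bar per tumour. The section with no gene detected covers 66.7 to 71.5% of WT cells and 11.6 to 19.4% of Kmt2c KO cells, and Kmt2d KO library 2 (27.3%) differs from the other Kmt2d KO tumours (61.1 and 57.2%).

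The host cells of the same tumours, which carry no knockout, were measured next. In endothelial cells 5 of 9 genes were higher in tumours of Kmt2c KO cells than in WT tumours (4.04% of 5370 genes were called higher), namely Isg15, Ifitm3, Irf7, Bst2 and Ifi27l2a. Isg15 stood at 169.5, 144 and 496 CPM in endothelial cells of WT tumours, 961, 913 and 1486 CPM of Kmt2c KO tumours and 167, 875 and 277 CPM of Kmt2d KO tumours. Irf7 stood at 161, 104 and 244 CPM, 774, 951 and 1046 CPM, and 129, 884 and 180.4 CPM. Both genes were higher in all Kmt2c KO tumours than in any WT tumour, and Kmt2d KO library 2 lay well above libraries 1 and 3. Bst2 stood at 675, 530.1 and 846 CPM in WT, 2041, 2327 and 1976 CPM in Kmt2c KO and 884, 2112 and 979.9 CPM in Kmt2d KO, and Ifitm3 at 2353 to 2716 CPM in WT, 4257 to 4530 CPM in Kmt2c KO and 2235, 4334 and 2210 CPM in Kmt2d KO. The log2 rises in Kmt2c KO were 2.06 ± 0.52 for Isg15 (edgeR adjusted p = 0.0318), 2.47 ± 0.54 for Irf7 (adjusted p = 0.0158), 1.67 ± 0.29 for Bst2 (adjusted p = 0.00530) and 0.86 ± 0.23 for Ifitm3 (adjusted p = 0.0402).

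Ifi27l2a in endothelial cells rose by 4.01 ± 0.57 in Kmt2c KO (edgeR adjusted p = 0.00135), but from few cells. It was counted at 4, 22 and 6 UMIs in WT, 45, 153 and 67 in Kmt2c KO and 8, 3 and 46 in Kmt2d KO, and 1 cell alone held 19 of the 22 in WT library 2 and 32, 51 and 31 UMIs in the Kmt2c KO libraries. In Kmt2c KO it was found in 5, 13 and 4 endothelial cells. Its level did not follow Kmt2d KO library 2, which was the lowest of the Kmt2d KO tumours for this gene and the highest of them for Isg15, Irf7, Bst2 and Ifitm3. Ifit1 and Ifit3 did not pass in endothelial cells (1.57 ± 0.49 and 1.505 ± 0.77, edgeR adjusted p = 0.0725 and 0.287), nor did Rsad2 (0.94 ± 0.82, adjusted p = 0.563) or Usp18 (0.78 ± 0.57, adjusted p = 0.480). Rsad2 was already high in WT library 3, at 196 CPM against 24.2 and 2.52 CPM in the other WT libraries, and overlapped between WT and Kmt2c KO (102, 91.7 and 264 CPM).

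Against WT, 0 of 9 genes were called in endothelial cells of Kmt2d KO tumours with edgeR (0.0% of all genes, 2 of 9 at an unadjusted p under 0.05, 0 with DESeq2), and between the knockouts also 0 of 9 (0.0% of all genes, 5 at an unadjusted p under 0.05, 0 with DESeq2). Without Kmt2d KO library 2, 5 of 9 were lower in Kmt2d KO than in Kmt2c KO (3.66% of all genes). With 32 to 68 cells per library the 5 calls in Kmt2c KO also moved with single libraries, to 2 without WT library 1 or 2 or Kmt2c KO library 2 or 3, to 3 without Kmt2c KO library 1, and to 6 without WT library 3 or Kmt2d KO library 1 or 2. Over the 9 fits 0.885 to 6.75% of all genes were called higher. Without Kmt2d KO library 3, 1 of 9 was called between the knockouts, where the fits with 1 library left out called 0.0 to 3.66% of all genes lower. In each library 3.92 to 44.1% of the cells with endothelial markers were left out because they held Krt8 or H2BMc. This share was 3.92 to 11.7% in WT, 19.6 to 25.8% in Kmt2c KO and 11.3, 44.1 and 35.6% in Kmt2d KO libraries 1, 2 and 3. Its part in the result was not tested. In the cells that were kept, Krt8 and H2BMc were at 0 by the gate.

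In macrophages 7 of 9 genes were higher in Kmt2c KO than in WT tumours (5.67% of 4600 genes were called higher), namely Isg15, Ifitm3, Irf7, Bst2, Rsad2, Ifit3 and Ifit1. Isg15 stood at 76.3, 154 and 148 CPM in WT, 798, 1154 and 993 CPM in Kmt2c KO and 137, 611 and 153 CPM in Kmt2d KO. Irf7 stood at 201, 265 and 635 CPM in WT, 1268, 1471 and 1459.7 CPM in Kmt2c KO and 265, 803 and 549 CPM in Kmt2d KO. For both, as in tumour cells, Kmt2c KO lay above WT in every library and Kmt2d KO library 2 lay between them and above the other 2 Kmt2d KO tumours. Ifit1 stood at 27.7, 6.98 and 34.2 CPM in WT, 99.8, 97.7 and 114 CPM in Kmt2c KO and 8.82, 82.1 and 27.0 CPM in Kmt2d KO. Rsad2 was counted at 13, 0 and 13 UMIs in WT, 27, 127 and 115 in Kmt2c KO and 3, 9 and 5 in Kmt2d KO, so Kmt2d KO library 2 did not stand out for it. The log2 rises in Kmt2c KO were 2.99 ± 0.45 for Isg15 (edgeR adjusted p = 0.000576), 1.93 ± 0.37 for Irf7 (adjusted p = 0.00345), 2.09 ± 0.51 for Ifit1 (adjusted p = 0.0138) and 2.32 ± 0.45 for Rsad2 (adjusted p = 0.00359).

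Bst2 stood at 257, 237 and 323 CPM in macrophages of WT tumours, 1048, 1235 and 788 CPM of Kmt2c KO tumours and 432, 515 and 306 CPM of Kmt2d KO tumours, and rose by 1.95 ± 0.25 in Kmt2c KO (edgeR adjusted p = 0.000205). Ifi27l2a was abundant in macrophages of all groups. It was at 2531, 1054 and 1935 CPM in WT and stood at 2280.2, 2470.2 and 2042 CPM in Kmt2c KO and 1654, 1623 and 1287 CPM in Kmt2d KO, and by level it did not pass in Kmt2c KO (0.37 ± 0.23, edgeR adjusted p = 0.406). Usp18 did not pass either (1.28 ± 0.41, edgeR adjusted p = 0.0637), but did without Kmt2d KO library 1 or 2 (adjusted p = 0.0400 and 0.0255). Ifit1 was lost without WT library 2 or Kmt2c KO library 3 (edgeR adjusted p = 0.0539 and 0.0776), and Ifitm3 (0.97 ± 0.25, adjusted p = 0.0218) without WT library 2 or 3 or Kmt2c KO library 2 (adjusted p = 0.105, 0.0519 and 0.0998). In Kmt2d KO 0 of 9 genes were called against WT with edgeR (0.913% of all genes higher, 2 of 9 at an unadjusted p under 0.05, 0 with DESeq2). Without Kmt2d KO library 1 it was 1 of 9, where the fits with 1 library left out called 0.186 to 1.58% of all genes higher. Relative to Kmt2c KO, 2 of 9 were lower (0.13% of all genes), Bst2 by −1.27 ± 0.24 (edgeR adjusted p = 0.0300) and Rsad2 by −2.85 ± 0.49 (adjusted p = 0.0148), although all 9 had every Kmt2d KO tumour below every Kmt2c KO tumour, as did 9.04% of all genes. Without Kmt2d KO library 2, 8 of 9 were lower (2.9% of all genes), all but Ifi27l2a. The 2 calls became 0 without Kmt2c KO library 2 or 3 or Kmt2d KO library 1, and 1 without Kmt2c KO library 1 or Kmt2d KO library 3, in fits that called 0.0 to 2.9% of all genes lower. Cells with macrophage markers that held Krt8 or H2BMc were also left out. They made up 4.17 to 8.82% in WT, 14.7 to 26.7% in Kmt2c KO and 12.4, 35.4 and 23.8% in Kmt2d KO libraries 1, 2 and 3. Their part in the result was not tested.

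Shares were compared between cell types at 1000 UMIs per cell, a depth that 16481 of 16556 tumour cells, 417 of 427 endothelial cells and 686 of 756 macrophages reached. The macrophages left out made up 3.23 to 8.70% of a library in WT and 7.33 to 15.3% in Kmt2c KO. Isg15 was detected in 16.3, 19.7 and 18.8% of endothelial cells of WT tumours and 35.4, 46.2 and 37.5% of Kmt2c KO tumours. In macrophages it was detected in 10.0, 11.1 and 4.76% in WT and 43.9, 49.7 and 45.8% in Kmt2c KO, and in tumour cells in 8.80, 6.41 and 9.61% and 35.7, 38.8 and 43.4%. Isg15 UMIs were thus found in a larger share of droplets in Kmt2c KO for all 3 cell types, with no overlap between the groups. In Kmt2c KO the share in macrophages was above that in tumour cells of every library. In Kmt2d KO Isg15 was detected in 17.8, 39.4 and 26.3% of endothelial cells and 9.72, 36.7 and 9.38% of macrophages. As a gauge of free RNA at this depth, C1qa was detected in 0 to 2.08% of endothelial cells, although the gate allows only 1 macrophage marker. Pecam1 was detected in 0 to 11.3% of macrophages, highest in Kmt2c KO. Other endothelial markers were mixed in macrophages. Emcn, Esam and Cldn5 were at 0 CPM in all 9 libraries, but Kdr, Plvap and Flt1 reached 45.0, 45.0 and 18.0 CPM. Cdh5, Egfl7 and Tie1 reached at most 7.60 CPM. The macrophage gate also allows only 1 endothelial marker. Whether Pecam1 there was free RNA was not tested, so it is not used as a gauge. Free tumour RNA in host droplets was not gauged, since Krt8 and H2BMc are at 0 by the gate. Its part in these shares was not tested. Irf7 was detected in 16.3, 4.55 and 16.7% of endothelial cells in WT and 45.8, 56.4 and 53.1% in Kmt2c KO, and in 20.0, 17.8 and 31.7% and 57.9, 65.8 and 62.7% of macrophages. Other members did not all follow their level. Ifitm3, higher by level in endothelial cells, had overlapping shares there, at 91.8, 87.9 and 77.1% in WT and 89.6, 89.7 and 84.4% in Kmt2c KO. These shares were already high in WT. The UMIs of Ifitm3 per positive endothelial cell averaged 2.84 in WT and 4.84 in Kmt2c KO, without overlap and with no test run. Ifi27l2a, which did not pass by level in macrophages, was detected in 53.3, 53.3 and 54.0% of them in WT, 75.4, 73.3 and 72.3% in Kmt2c KO and 54.2, 71.4 and 62.5% in Kmt2d KO. Kmt2c KO and WT did not overlap, and no test was run. Ifit1, Ifit3, Usp18 and Rsad2 were detected in at most 15.6% of host cells in any library at this depth.

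The size of the difference between Kmt2c KO and WT was compared between cell types within tumours, as the tumour-cell log2 level minus that of the host cells of the same library (limma). It was larger in tumour cells than in macrophages for 2 of 9 genes (1.69% of 4384 genes), Ifi27l2a by 1.71 ± 0.31 (adjusted p = 0.0114) and Usp18 by 1.51 ± 0.37 (adjusted p = 0.0468). Against endothelial cells it was larger for 2 of 9 genes (1.1% of 5102 genes), Bst2 by 1.06 ± 0.20 (adjusted p = 0.0265) and Usp18 by 2.34 ± 0.47 (adjusted p = 0.0354). For Isg15 the difference was 0.07 ± 0.34 against macrophages (limma adjusted p = 0.947) and 0.79 ± 0.38 against endothelial cells (adjusted p = 0.316), and for Ifit1 0.30 ± 0.28 and 0.88 ± 0.48 (adjusted p = 0.631 and 0.394). Wider differences did not pass either, with Rsad2 at 2.37 ± 0.62 against macrophages (limma adjusted p = 0.0613) and 3.20 ± 0.81 against endothelial cells (adjusted p = 0.0759). For Ifi27l2a the value in tumour cells was the smaller one against endothelial cells, at −1.70 ± 0.79 (limma adjusted p = 0.302). All 4 calls were lost on leaving out at least 1 library. The counts ranged from 0 (without Kmt2c KO library 3) to 3 (without Kmt2d KO library 2 or 3) against macrophages, with 1 without WT library 1 or 3, Kmt2c KO library 1 or 2 or Kmt2d KO library 1. Against endothelial cells they were 0 without WT library 2 or 3, Kmt2c KO library 1 or 2 or Kmt2d KO library 1, and 1 without Kmt2c KO library 3. The fits with 1 library left out called 0.443 to 2.62% of all genes larger in tumour cells than in macrophages and 0.0744 to 1.45% larger than in endothelial cells.

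**Figure D4:**
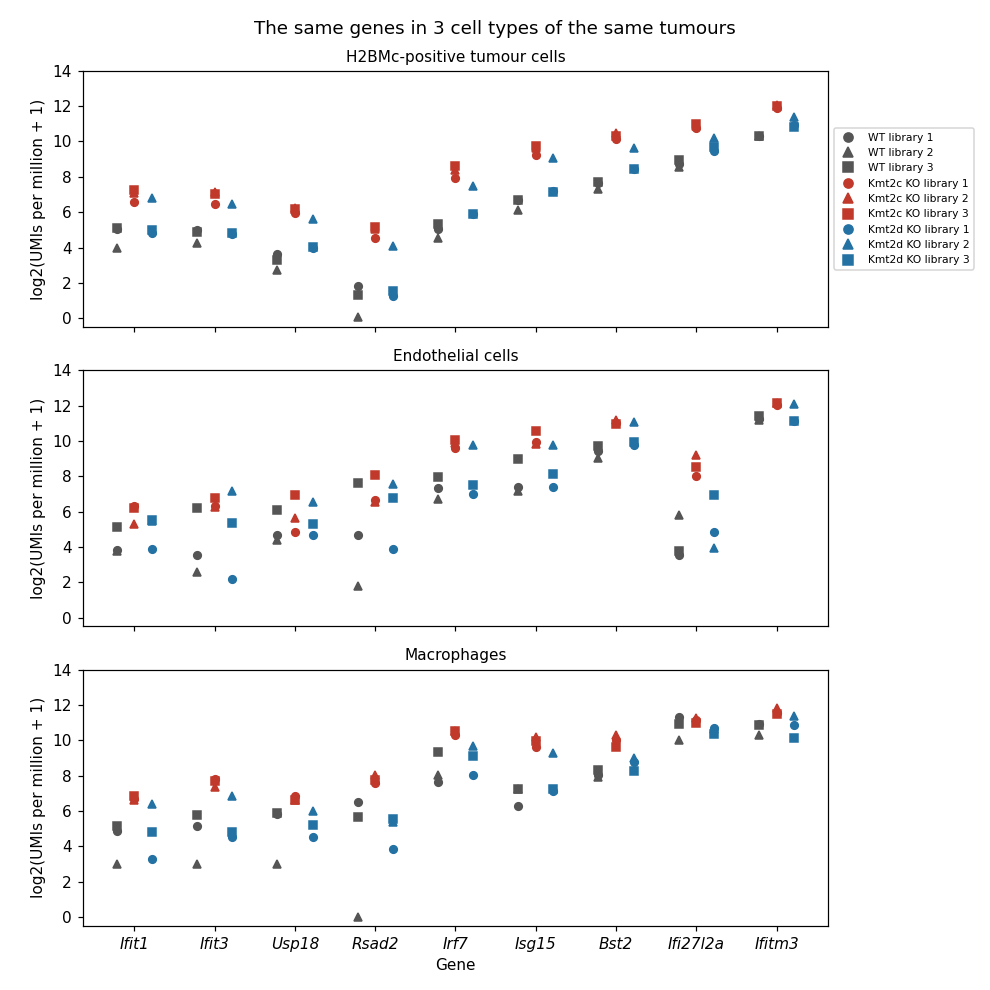
Level of the 9 genes, as log2(CPM + 1), in tumour cells, endothelial cells and macrophages, with 1 point per tumour in WT, Kmt2c KO and Kmt2d KO. Kmt2c KO points lie above WT for 9 of 9 genes in tumour cells, 7 of 9 in endothelial cells (12.9% of all tested genes) and 8 of 9 in macrophages (12.4% of all tested genes), and Ifi27l2a is high in macrophages of all groups.

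Other genes of the pathway were counted in lists. Of 37 other antiviral interferon-stimulated genes tested in tumour cells (40 listed, 38 with a row), 32 were higher and 0 lower in Kmt2c KO (9.6% of all genes were higher), with a median log2 difference of 1.93 against −0.0042 over all genes. The largest were Zbp1, a sensor of Z-form nucleic acids (3.58 ± 0.82, edgeR adjusted p = 0.0141), Ifi44 (3.45 ± 0.70, adjusted p = 0.00882) and Rtp4 (3.25 ± 0.43, adjusted p = 0.00122). In Kmt2d KO 3 of 37 were higher with edgeR (1.06% of all genes) and 9 with DESeq2 (2.33% of all genes), with an edgeR median of 0.92. The 3 were Oas1a (1.55 ± 0.34), Rtp4 (1.84 ± 0.41) and Ifi27 (0.39 ± 0.08). The shares of positive cells rose for 30 of 34 genes of this list in Kmt2c KO (5.17% of all genes) and the level per positive cell for 13 of 31 (1.86% of all genes), with a median of 0.21 for the latter. In endothelial cells 11 of 31 rose in Kmt2c KO (median 1.27), where 4.04% of all genes did, and in macrophages 16 of 34 (median 1.13), where 5.67% did. In Kmt2d KO edgeR called 0 of 31 in endothelial cells (0.0% of all genes), with 8 at an unadjusted p under 0.05 and a median of 0.72. In macrophages it called 0 of 34 (0.913% of all genes higher), with 4 at an unadjusted p under 0.05 and a median of 0.13. DESeq2 also called 0 in both. When Kmt2d KO library 2 was left out, 9 of 38 rose in Kmt2d KO tumour cells (2.84% of all genes) with a lower median of 0.34, and Oas1a, Rtp4 and Ifi27 stood at 1.04 ± 0.18, 1.04 ± 0.15 and 0.40 ± 0.09. In host cells edgeR then called 0 of 33 in endothelial cells (4 at an unadjusted p under 0.05, median 0.013) and 0 of 36 in macrophages (0 at an unadjusted p under 0.05, median −0.16). Over the 9 fits that each left out 1 library, 0.0 to 0.306% of all genes were called higher in endothelial cells and 0.186 to 1.58% in macrophages.

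Among type I interferon signalling genes, 3 of 6 were higher in Kmt2c KO tumour cells, where 9.6% of all tested genes were. These were Stat2 (2.52 ± 0.44, edgeR adjusted p = 0.00450) and Irf9 (1.73 ± 0.21, adjusted p = 0.000849), which bind the ISRE together, and the receptor chain Ifnar2 (0.51 ± 0.10, adjusted p = 0.00842). The other receptor chain, Ifnar1, and the kinases Jak1 and Tyk2 stood at 0.10 ± 0.09, 0.05 ± 0.07 and 0.04 ± 0.11 and did not pass. In endothelial cells 2 of 5 rose (4.04% of all genes), Stat2 by 2.01 ± 0.38 (edgeR adjusted p = 0.00981) and Irf9 by 1.40 ± 0.32 (adjusted p = 0.0197). In macrophages 1 of 6 rose (5.67% of all genes), Stat2 by 1.29 ± 0.35 (edgeR adjusted p = 0.0275), with Irf9 at 0.54 ± 0.49 (adjusted p = 0.584). Among genes of nucleic acid sensing, 3 of 8 tested were higher in Kmt2c KO tumour cells (again against 9.6% of all genes), the cytosolic RNA sensors Dhx58 (1.96 ± 0.28, edgeR adjusted p = 0.00198), Ifih1 (1.84 ± 0.29, adjusted p = 0.00262) and Ddx58 (1.56 ± 0.31, adjusted p = 0.00777). The DNA sensor Cgas (0.11 ± 0.14), its adaptor Tmem173 (−0.22 ± 0.10), the RNA-sensing adaptor Mavs (−0.30 ± 0.12), the kinase Tbk1 (0.27 ± 0.11) and the factor Irf3 (−0.13 ± 0.07) did not pass. Of the sensing genes 0 of 5 were called in endothelial cells with edgeR and with DESeq2 (2 at an unadjusted p under 0.05 with edgeR), and 1 of 5 in macrophages, Dhx58 (1.54 ± 0.38, edgeR adjusted p = 0.0153). In Kmt2d KO tumour cells Stat2 and Irf9 stood at 1.31 ± 0.43 and 0.87 ± 0.21 and did not pass (edgeR adjusted p = 0.156 and 0.0655). With that group's library 2 left out they stood at 0.46 ± 0.16 and 0.55 ± 0.11, and Irf9 passed (edgeR adjusted p = 0.125 and 0.0130).

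The interferon genes themselves were too sparse to test in any cell type. Over all 58645 kept cells Ifnb1 was counted at 147 UMIs in 65 cells, with 0, 2 and 4 UMIs in WT libraries, 11, 41 and 8 in Kmt2c KO libraries and 9, 67 and 5 in Kmt2d KO libraries. Kmt2d KO library 2 held the most, and WT libraries had the fewest cells (939 to 2380). Ifng was counted at 193 UMIs in 46 cells, of which 154 were in Kmt2c KO library 2 and 130 in 1 cell of it. Ifna4, Ifne, Ifnk and Ifna5 gave 12, 18, 2 and 1 UMIs, and Ifna1, Ifna2, Ifnl2 and Ifnl3 gave 0 of 58645 cells, which allows a share of up to 0.00512% of cells with a UMI, taken as 3 counts over the cells of all 9 libraries. This limit covers counting error only.

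The genes whose tumour-cell level ran most like the mean of the 9 members over the 9 libraries were Ube2l6, the conjugating enzyme of Isg15, Lgals3bp, Ifi35, Mitd1 and Dnajc5, with Pearson's r of 0.991 to 0.994. This is a description, since the libraries form clusters and share the tumour-cell composition of each library.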

How the data were processed

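Each of 9 whole-tumour suspensions, cleared by Percoll, was run on the 10x 5′ HT v2 chemistry, and the deposited values are UMI counts per gene and barcode that the authors made with Cell Ranger 7.0.1 on mm10, per the submitters' processing notes, and aggregated into 1 matrix. No source used here states the annotation version or whether aggregation thinned the libraries to one depth. Libraries were grouped by the genotype letter of the aggregation table (C, D or X), and 0 columns lacked a group. Cells with over 500 and under 7500 genes and under 15% mitochondrial counts were kept, the study's limits. Tumour cells had at least 1 H2BMc UMI and fewer than 3 endothelial and 3 macrophage markers, and host cells at least 3 of 10 markers, at most 1 of the other type and no H2BMc or Krt8 UMI. The endothelial markers were Pecam1, Cdh5, Kdr, Emcn, Egfl7, Esam, Tie1, Flt1, Cldn5 and Plvap, and the macrophage markers included Adgre1, Csf1r, C1qa, C1qb, C1qc, Mrc1, Fcgr1, Ms4a7 and Cd68, with 1 not reported here. No doublet caller was run, and the marker limits stand in for one. For tumour cells only, a fit without the 5% of cells with most UMIs was added.

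Counts were summed per library and cell type and tested with edgeR 4.0.16 (quasi-likelihood, R 4.3.3) over all 9 libraries, with Benjamini-Hochberg adjustment over all genes tested and a threshold of 0.05. Shares of positive cells (log2 odds, 0.5 added, genes at 1 to 99%) and log2 UMIs per positive cell (at least 10 positive cells in each library) were tested with limma 3.58.1 after thinning cells to 5000 UMIs. Differences between cell types used limma on per-library log2 CPM with a prior count of 2. Intervals of shares are exact 95% binomial intervals. DESeq2 1.42.0 was an alternative. Scripts were tested on simulated data. Tumours of a group are separate mice with 1 pool of knockout cells, so p-values rest on the spread between tumours. That spread is estimated over all 3 groups together, so Kmt2d KO library 2 also enters contrasts without Kmt2d KO. Without it Ifit1 passed in endothelial cells of Kmt2c KO tumours (1.55 ± 0.45 against WT, edgeR adjusted p = 0.0267). Depth was 21529691 to 125617312 UMIs per library, and WT tumour cells were the fewest, so shares are least precise there. All 9 members with a row were named whatever their values, other genes came from the antiviral, signalling, sensing and interferon lists, and from these the 3 antiviral genes with the largest change were named. The members and lists were chosen with earlier results of these data known.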

Additional observations from a re-analysis of the deposited data

Results flagged for a closer look

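In 4 cases the difference between Kmt2c KO and WT tumours itself differed between cell types of the same tumours, by limma on per-library log2 levels. Usp18 rose more in tumour cells than in macrophages, by 1.51 ± 0.37 (adjusted p = 0.0468), and more than in endothelial cells, by 2.34 ± 0.47 (adjusted p = 0.0354). Ifi27l2a rose more in tumour cells than in macrophages, by 1.71 ± 0.31 (adjusted p = 0.0114), where its level was already high in WT, at 1054 to 2531 CPM. Bst2 rose more in tumour cells than in endothelial cells, by 1.06 ± 0.20 (adjusted p = 0.0265). Usp18 was counted at 5 to 32 UMIs per library in endothelial cells and at 1 to 51 in macrophages, against 79 to 2278 in tumour cells. All 4 calls were lost on leaving out at least 1 library. Over all genes, 1.69% were called larger in tumour cells than in macrophages and 1.1% larger than in endothelial cells.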

How the results depend on the processing

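No paired analysis was possible because the columns carry no replicate numbers and nothing ties a library to one. In Kmt2c KO against WT, leaving out 1 library at a time gave 7 to 9 of 9 genes higher in tumour cells, 2 to 6 in endothelial cells, 5 to 8 in macrophages, 9 by share and 3 to 5 of 8 by level per positive cell, and other tumour gates and mitochondrial limits kept 9 of 9 by level in tumour cells. Over the fits with 1 library left out, 4.87 to 14.4% of all genes were called higher by level in tumour cells, 0.885 to 6.75% in endothelial cells and 3.14 to 7.05% in macrophages. By share 2.79 to 8.1% were, and by level per positive cell 0.473 to 2.5%. Without a filter on low counts endothelial cells gave 8, in a fit that also called more genes over all, as counted below. Differences between cell types were called for 0 to 3 genes against macrophages and 0 to 2 against endothelial cells with 1 library left out. In Kmt2d KO against WT the 3 calls by tumour level became 6 without the low-count filter (328 of 23394 genes higher) and 1 in a fit of the 2 groups alone (92 of 12991). They became 5 with at least 2 H2BMc UMIs and 0 without cells holding Mki67 or Top2a, fits whose share over all genes is not given here. With 1 library left out they were 0 to 6 (0.35 to 2.84% of all genes higher). The 1 call by share became 0 in cells with no other marker, without the 5% of cells with most UMIs, under 25% mitochondrial counts and at 10000 UMIs. It became 3 at 2500 UMIs and 4 without thinning, and 0 to 4 with 1 library left out (0.216 to 1.49% of all genes higher in the latter). Endothelial cells gave 3 without the filter (0.792% of all genes higher) and 1 with at least 2 markers (3.64%), and macrophages 1 without the filter (1.09%) and 0 to 1 with 1 library left out (0.186 to 1.58%).

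Between the knockouts the 0 calls by tumour level became 4 with DESeq2 (333 of 12929 genes lower) and 4 with at least 2 H2BMc UMIs (149 of 12493). They became 8 without the filter (382 of 23394 genes lower), 2 with H2BMc and Krt8 (7 of 13685) and 3 with no other marker (24 of 12547). With 1 library left out they were 0 to 9 (0.0 to 10.5% of all genes lower), 9 being without Kmt2d KO library 2. The 1 call by share became 3 with at least 2 H2BMc UMIs or no other marker, 2 at 2500 UMIs and 7 without thinning. It became 0 with Krt8 whether or not H2BMc was seen, without Mki67 or Top2a, or without the 5% of cells with most UMIs. With 1 library left out it was 0 to 9 (0.0 to 4.27% of all genes lower). Levels per positive cell gave 3 with at least 2 H2BMc UMIs, 1 with no other marker, and 0 to 4 with 1 library left out (0.0 to 0.946% of all genes lower). Endothelial cells gave 4 without the filter and 0 to 5 with 1 library left out (0.0 to 3.66% of all genes lower). Macrophages gave 8 without the filter, 0 with at least 2 markers and 0 to 8 with 1 library left out (0.0 to 2.9% lower). For the other fits by share, per positive cell and in host cells the part of all genes called is not given here, so those counts are not read further. The level of Ifit1 per positive cell, −0.08 in Kmt2c KO against WT, was 0.11 without cells holding Mki67 or Top2a and −0.33 to 0.14 with 1 library left out, and without thinning it was −0.69, where WT cells are deeper than Kmt2c KO cells. That of Usp18 ranged from −0.012 (without WT library 2) to 0.35, and none of these signs was called after thinning. Over all genes, calls between the knockouts went from 0 to 589 with DESeq2, 597 without the filter, 5 with size factors and 2808 without Kmt2d KO library 2, and calls in Kmt2d KO against WT from 319 to 682, 539 and, in the 2 groups alone, 180. In host cells, calls in Kmt2d KO against WT went from 0 to 379 in endothelial cells with at least 2 markers and 158 without the filter, and from 46 to 188 in macrophages without the filter. Those in Kmt2c KO against WT went from 310 to 1062 in endothelial cells with at least 2 markers and 633 without the filter. In macrophages of Kmt2d KO tumours the calls also fell in some fits. With 1 library left out 0.186 to 1.58% of all genes were called higher than in WT, against 0.913% in the main fit. Shares called in Kmt2c KO went from 1269 to 9795 without thinning, of which 9566 were lower. The cause of these shifts was not tested. In unthinned cells depth also differs between the groups, as given above. Few endothelial cells and macrophages per library limit what can be seen in host cells.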
